A study of Homo sapiens with 18 samples.

Results

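Amino acids cross membranes through carriers of several gene families, and 39 genes of 6 of these families are described here in MiaPaCa-2 cells before and after growth in a nerve. The genes were taken by symbol from the SLC1A, SLC3A, SLC7A, SLC36A, SLC38A and SLC43A families, without SLC7A11, and make up 39 of the 57445 genes in the counts. After a filter on low counts 24 of the 39 were among 16187 genes tested. MiaPaCa-2 is an established human pancreatic cancer line, and all groups carried the WT genotype. RNA was sequenced from 18 libraries, 3 in each of 6 groups: passage 1 laggers, leaders of passages 1, 2, 3 and 4, and parental cells that were kept in vitro and never injected. Laggers and leaders had been injected into the sciatic nerve, where leaders were the cells that had moved farthest and laggers those that stayed behind, and leaders were grown and injected again from passage to passage. The sources used here give neither the host animal nor the moment of RNA extraction. The labels do not say whether replicates stem from different cultures or hosts, so a p-value here measures only the spread between these libraries, which may be technical.

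Amino acid transporters work as exchangers, which trade one amino acid for another, or as net importers driven by sodium, protons or voltage. The light chain SLC7A5 (LAT1) imports leucine and other large neutral amino acids in exchange for intracellular ones, and reaches the plasma membrane only when linked to the heavy chain SLC3A2 (CD98hc). SLC1A5 (ASCT2) exchanges glutamine and small neutral amino acids, SLC7A1 (CAT1) carries arginine and lysine, and SLC38A1 and SLC38A2 load cells with glutamine and alanine. LAT1 and ASCT2 are known as transporters that are abundant in many tumours, and SLC7A5, SLC3A2, SLC7A1 and SLC7A11 are among the known targets of ATF4, the factor that cells induce when amino acids run short.

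Upstream sequence is shown for 4 members whose levels changed against parental cells or, for SLC36A1, between leader passages. It shows which of them carry the E-box CACGTG, the letters bound by MYC and by the lysosomal regulators of the TFEB family. Each run below gives the 250 bases before a RefSeq transcript start on GRCh38.p14, 5′ to 3′ on the strand of the gene, with each CACGTG in capitals.
SLC7A5, chr16:87869508-87869757, minus strand: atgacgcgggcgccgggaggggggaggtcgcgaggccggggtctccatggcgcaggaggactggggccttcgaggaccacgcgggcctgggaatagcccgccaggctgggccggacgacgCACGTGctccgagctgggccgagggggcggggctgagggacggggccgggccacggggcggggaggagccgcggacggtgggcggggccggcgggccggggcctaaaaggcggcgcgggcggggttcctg
SLC43A1, chr11:57515703-57515952, minus strand: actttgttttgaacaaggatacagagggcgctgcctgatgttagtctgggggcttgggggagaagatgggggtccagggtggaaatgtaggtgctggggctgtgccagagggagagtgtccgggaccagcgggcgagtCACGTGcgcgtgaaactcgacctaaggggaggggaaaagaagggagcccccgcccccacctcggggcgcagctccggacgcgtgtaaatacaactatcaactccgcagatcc
SLC36A1, chr5:151447353-151447602, plus strand: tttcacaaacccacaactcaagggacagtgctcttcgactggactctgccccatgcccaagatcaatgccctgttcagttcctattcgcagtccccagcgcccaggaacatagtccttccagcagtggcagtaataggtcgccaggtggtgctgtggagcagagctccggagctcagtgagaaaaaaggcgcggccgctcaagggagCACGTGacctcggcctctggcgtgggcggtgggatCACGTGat
SLC7A1, chr13:29595689-29595938, minus strand: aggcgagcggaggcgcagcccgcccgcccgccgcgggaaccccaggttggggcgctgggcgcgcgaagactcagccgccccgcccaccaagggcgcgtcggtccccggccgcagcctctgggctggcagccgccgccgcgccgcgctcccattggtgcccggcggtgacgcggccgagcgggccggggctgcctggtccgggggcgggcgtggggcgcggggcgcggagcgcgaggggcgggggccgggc
In GENCODE 29 SLC3A2 lies on chromosome 11 with SLC43A1, SLC1A5 on chromosome 19, and SLC38A1, SLC38A2 and SLC38A4 all on chromosome 12. The E-box began 130 bases before the start in SLC7A5 and 112 before the start shown for SLC43A1. The other listed start of SLC43A1 did not hold it. SLC36A1 held it 43 and 8 bases before the start of this transcript and not at its other listed start, and SLC7A1 did not hold it in these letters. RefSeq start sites were matched for 31 of the 39 members, with 53 starts in all. CACGTG, which reads the same on both strands, stood before 8 of the 53 starts and before 6.34% of 35116 starts of all genes. The ATF4 site TGATGNAA, searched on both strands, stood before 2 of the 53 and before 3.14% of all; the 2 were starts of SLC1A5 and SLC1A3. Against parental cells SLC7A5 was called lower in 3 nerve-recovered groups and SLC43A1 in all 5. SLC36A1 rose over the leader passages and was called in no comparison with parental cells. The other starts with the E-box belonged to SLC1A5, lower in 5 groups, SLC7A8, higher in 3, SLC38A5, higher in 2, SLC7A7, higher in 1, and SLC1A7, not tested. SLC1A5, SLC7A8 and SLC7A7 also had listed starts without it. The matches describe the letters only, and their part in the levels was not tested.

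Counts assigned to genes ran from 15113462 to 39373248 per library. Mitochondrially encoded genes took 5.91% to 8.47% of them in laggers, 5.60% to 8.57% in passage 1 leaders, 1.95% to 3.33% in passage 4 leaders and 0.472% to 0.873% in parental cells. Reads without a unique alignment took 13.9% to 16.4% of all reads in parental libraries and 20.2% to 32.6% in nerve-recovered ones, without overlap. Unaligned reads took 4.09% to 24.8% of all reads in the count tables, those assigned to no gene included. The gap between the highest library and the next of its group was widest in passage 3 leaders (replicate 2, 24.8% and 10.5%), parental cells (replicate 3, 10.1% and 5.20%) and laggers (replicate 3, 16.5% and 12.6%). Passage 3 leader replicate 2 also held 14.1% of reads outside genes and haemoglobin transcripts, with a sum of 21052 CPM (counts scaled to the TMM-adjusted library size) over 6 erythroid genes, against at most 3.29 CPM in any library of the other groups. Of the markers of other cells of a nerve, the summed level of 10 fibroblast genes was 1274 to 2155 CPM in laggers, 1009 to 2311, 739 to 1504, 550 to 1336 and 234 to 496 CPM in leaders of passages 1 to 4, and 119 to 253 CPM in parental cells, with COL1A2 and COL3A1 the largest part in nerve-recovered groups. COL1A1 made up most of the parental sum. It averaged 6.61 to 48.6 CPM in the nerve-recovered groups and 160 CPM in parental cells. PDGFRA averaged 2.53 CPM in laggers, 10.0, 63.7, 57.3 and 13.9 CPM in leaders of passages 1 to 4, and 0.112 CPM in parental cells. DCN and LUM averaged 9.40 and 8.39 CPM in laggers, 4.09 and 3.97 CPM in passage 1 leaders and 0.187 and 0.118 CPM in parental cells. PDGFRB averaged 0.885 CPM in parental cells and at most 0.308 CPM in any nerve-recovered group. COL6A3 averaged at most 0.747 CPM in any group. THY1 had 0 counts in parental cells and FAP at most 2 in any group. The 10 Schwann cell genes summed to 28.8 to 89.5 CPM in nerve-recovered libraries and 233 to 270 CPM in parental ones, with FOXD3 at 0 throughout. The 10 leukocyte genes summed to at most 35.4 CPM, with C1QA and C1QB at 0. Among them PTPRC averaged 2.23, 3.09, 2.51 and 0.675 CPM in leaders of passages 1 to 4 and had 0 counts in laggers and parental cells, and ITGAM averaged 20.9 CPM in passage 4 leaders and 2.24 CPM in parental cells. MTAP and CDKN2A, known to be deleted in this line, were at 0 except for 6 counts of CDKN2A in 1 lagger library. VIM, a marker of the line's mesenchymal state, averaged 1826 CPM in parental cells and 2068 to 2581 CPM in nerve-recovered groups. The epithelial genes KRT8 and KRT18 averaged 2465 and 2419 CPM in parental cells. In nerve-recovered groups they averaged 6291 to 9580 and 5845 to 9977 CPM. CDH1 had 0 parental counts and averaged 0.194 to 8.68 CPM in nerve-recovered groups. EPCAM averaged at most 0.170 CPM in any group. The part of these differences in the results below was not tested, and in bulk RNA fewer cells of a type and less RNA per cell cannot be told apart.

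Most counts of the transporters came from 5 genes, SLC38A2, SLC7A5, SLC1A5, SLC3A2 and SLC38A10, which held 75.9% to 80.7% of the counts of the 39 genes in nerve-recovered groups and 83.0% in parental cells. The summed level of the 39 genes averaged 2276 ± 156 CPM in laggers, 2502 ± 297, 2909 ± 249, 2521 ± 466 and 1994 ± 114 CPM in leaders of passages 1 to 4, and 3831 ± 443 CPM in parental cells (SD, n = 3 each). No nerve-recovered library reached the lowest parental one in this sum, 3162 CPM at most against 3357 CPM at least. Per kilobase of exon, SLC38A2 led passage 4 leaders with 116 CPM per kilobase, followed by SLC7A5 with 40.8, SLC1A5 with 38.9, SLC38A10 with 36.8 and SLC3A2 with 29.4. In parental cells SLC7A5 led with 219 CPM per kilobase, followed by SLC38A2 with 148, SLC1A5 with 146, SLC3A2 with 78.9 and SLC38A10 with 35.8. With the length of the longest coding transcript in place of all exons SLC3A2 moved up to the second place in passage 4 leaders and SLC7A5 fell to the fifth, while SLC7A5 kept the first place in parental cells.

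Calls rest on edgeR's quasi-likelihood test with Benjamini-Hochberg adjustment over all 16187 genes and a threshold of 0.05. Against parental cells, 4 of the 24 tested transporters were higher and 5 lower in laggers, 37.5% of them, while 39.3% of all genes were called (21.5% higher and 17.8% lower). In passage 1 leaders 8 were higher and 5 lower, 54.2% against 45.7% of all genes (23.2% higher and 22.4% lower). Passage 2 leaders had 4 higher and 3 lower, 29.2% against 29.9% of all genes (15.1% higher and 14.8% lower). Passage 3 leaders had 5 and 5, 41.7% against 24.6% of all genes (13.8% and 10.8%), and passage 4 leaders 3 and 6, 37.5% against 27.7% (14.8% and 12.9%). These shares lay near those of all genes in the laggers and in leaders of passages 1 and 2, and 4 of the 24 (SLC1A3, SLC3A1, SLC7A7 and SLC38A5) passed the filter with at most 5 counts in the whole parental group, so they could hardly be called lower. The passage 1 count was 7 without parental replicate 1, 5 without parental replicate 3, 5 without leader replicate 1 and 7 without leader replicate 3. The passage 3 count was 5 without parental replicate 3, 6 without leader replicate 1 and 5 without leader replicate 3. Counts of all genes in these fits are not given here. The median log2 fold change of the 24 was 0.03 in laggers, with 0.02, 0.20, 0.03 and -0.04 in leaders of passages 1 to 4, against 0.09, 0.07, 0.00, 0.01 and 0.03 for all genes, and it was 0.18 at passage 3 with the members at 0 parental counts set at their bounds. Across the 5 comparisons 17 transporters were called at least once, 3 of them lower in all 5 (SLC1A5, SLC7A1 and SLC43A1), 1 higher in all 5 (SLC1A3) and none in opposite directions. All 5 comparisons share the parental libraries, and 24.6% to 45.7% of all genes were called in each. Calls repeated across the 5 were not counted over all genes, so these numbers do not set the transporters apart.

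**Figure D1:**
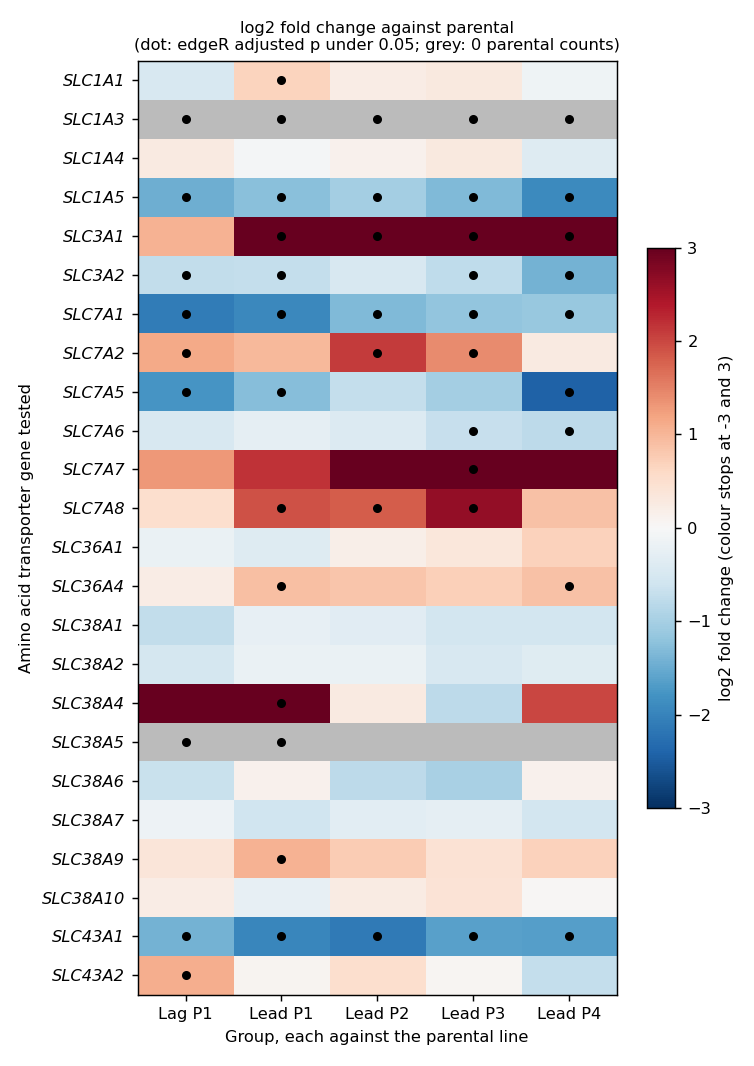
Log2 fold change of the 24 tested transporter genes (rows) in laggers and in leaders of passages 1 to 4 (columns), each against the parental line, with a dot where edgeR's adjusted p was under 0.05. Blue rows of dots mark SLC1A5, SLC7A1 and SLC43A1, lower in all 5 groups; the rows of SLC1A3 and SLC38A5 are grey because they had 0 parental counts.

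SLC3A2 and SLC7A5, the chains of the leucine exchanger, were lowest in passage 4 leaders. SLC7A5 had 212, 288 and 407 CPM in laggers and 287, 702 and 296 CPM in passage 1 leaders. It had 758, 486 and 646 CPM at passage 2, 232, 567 and 732 CPM at passage 3 and 257, 141 and 182 CPM at passage 4, against 853, 821 and 1437 CPM in parental cells. No nerve-recovered library reached the lowest parental value, and the libraries within passages 1 and 3 lay far apart. The log2 fold change against parental cells was -1.78 ± 0.43 in laggers (SE; edgeR adjusted p = 0.00398), -1.28 ± 0.42 in passage 1 leaders (0.0214) and -2.42 ± 0.44 in passage 4 leaders (0.000818). At passages 2 and 3 it was -0.72 ± 0.42 and -1.02 ± 0.42 and did not pass (edgeR adjusted p = 0.207 and 0.0869). The passage 1 call was lost without parental replicate 3 (edgeR adjusted p = 0.102) and without leader replicate 1 (0.0874) or 3 (0.0887). Pseudogenes SLC7A5P1 and SLC7A5P2 could share reads with SLC7A5.

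The heavy chain SLC3A2 had 182, 234 and 321 CPM in laggers, 204, 335 and 212 CPM in passage 1 leaders and 305, 253 and 319 CPM in passage 2 leaders. At passage 3 it had 199, 274 and 254 CPM and at passage 4 156, 140.0 and 159.9 CPM, against 351, 328 and 547 CPM in parental cells. Passage 4 leaders were the tightest group, and 1 passage 1 leader library, at 335 CPM, was the single nerve-recovered value above the lowest parental one. SLC3A2 fell by 0.73 ± 0.25 on the log2 scale in laggers (edgeR adjusted p = 0.0277), and the log2 fold change was -0.71 ± 0.25 in passage 1 leaders (0.0288), -0.75 ± 0.25 at passage 3 (0.0362) and -1.43 ± 0.25 at passage 4 (0.00068). At passage 2 it was -0.48 ± 0.25, which did not pass (edgeR adjusted p = 0.152). Without parental replicate 3 the log2 fold change of SLC3A2 was -0.47 in laggers, -0.45 at passage 1 and -0.49 at passage 3, with edgeR adjusted p of 0.153, 0.171 and 0.2; these calls were also lost without lagger replicate 1 (0.0734) or 2 (0.0769), passage 1 leader replicate 1 (0.109) or 3 (0.106), and passage 3 leader replicate 1 (0.147) or 3 (0.0726). The passage 4 call of SLC3A2 and the lagger and passage 4 calls of SLC7A5 passed under each of the alternatives run.

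**Figure D2:**
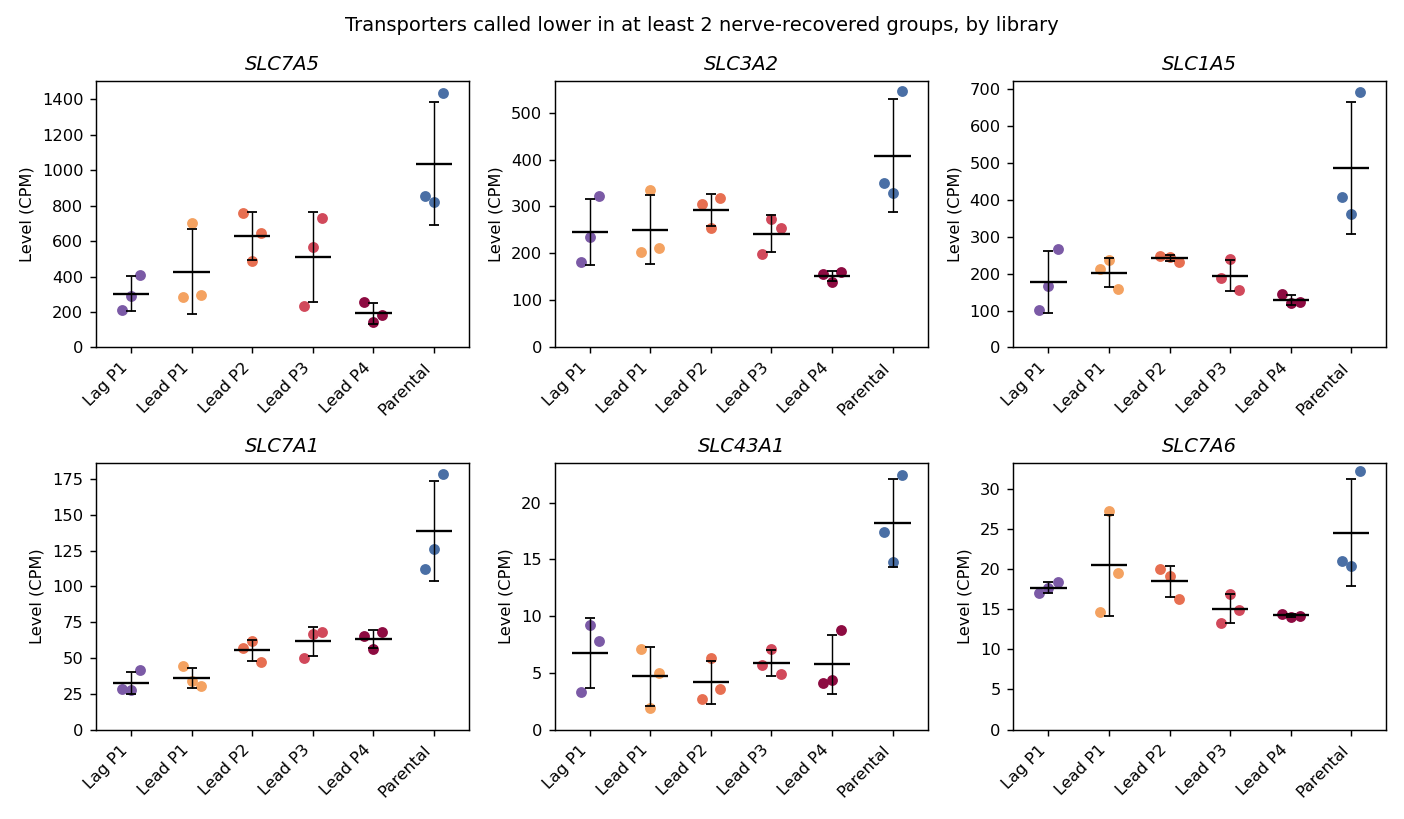
Level in CPM (y axis) of SLC7A5, SLC3A2, SLC1A5, SLC7A1, SLC43A1 and SLC7A6 in each of the 18 libraries, by group (x axis), with 1 point per library, a bar at the group mean and whiskers of 1 SD. The parental libraries stand at the top of the SLC1A5, SLC7A1 and SLC43A1 panels with no nerve-recovered library among them.

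SLC7A5 was also lower relative to SLC3A2 in most nerve-recovered libraries. The ratio of SLC7A5 to SLC3A2, each in CPM per kilobase of exon, was 1.27, 1.34 and 1.38 in laggers, 1.53, 2.29 and 1.52 in passage 1 leaders, 1.80, 1.10 and 1.25 in passage 4 leaders, and 2.66, 2.73 and 2.87 in parental libraries. Passage 2 and 3 leaders spanned 1.27 to 3.14, and 13 of the 15 nerve-recovered libraries lay below every parental one. The same ratio of SLC1A5 to SLC3A2 was 0.863 to 1.61 in the 15 nerve-recovered libraries and 1.71 to 1.97 in parental ones, without overlap. These ratios were computed after the values were seen and carry no p, and between 3 and 3 libraries an exact permutation test cannot go below 0.1. SLC7A11 (xCT), the cystine light chain that also pairs with SLC3A2, was not counted among the 39: it had 17.1, 9.53 and 8.54 CPM in laggers, 2.41, 3.25 and 1.45 CPM in passage 4 leaders and 59.6, 94.6 and 51.6 CPM in parental cells. Its log2 fold change was -2.55 ± 0.43 in laggers (edgeR adjusted p = 0.000297) and -4.86 ± 0.48 in passage 4 leaders (5.18e-06), so that SLC3A2 had lower levels of both of these partners there.

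**Figure D3:**
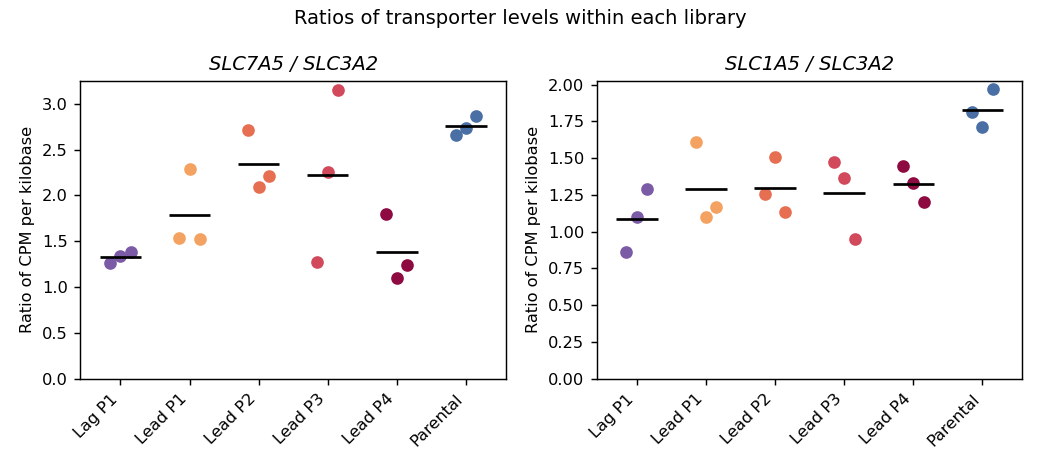
Ratio of SLC7A5 to SLC3A2 (left) and of SLC1A5 to SLC3A2 (right), each in CPM per kilobase, in the 18 libraries by group, with a bar at the group mean. Parental libraries lie between 2.66 and 2.87 on the left and between 1.71 and 1.97 on the right, above all nerve-recovered libraries but 2 on the left and above all of them on the right.

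Of the other light chains of SLC3A2, SLC7A6 was lower than in parental cells in 2 groups, SLC7A8 higher in 3 and SLC7A7 higher in 1. SLC7A6 (y+LAT2), which exchanges cationic for neutral amino acids, had 17.0, 17.6 and 18.3 CPM in laggers, 14.6, 27.2 and 19.6 CPM in passage 1 leaders and 20.0, 19.1 and 16.3 CPM in passage 2 leaders. It had 13.3, 16.9 and 14.9 CPM at passage 3 and 14.4, 14.0 and 14.2 CPM at passage 4, against 21.0, 20.3 and 32.2 CPM in parental cells. Leaders of passages 3 and 4 stood below the parental libraries without overlap, with log2 fold changes of -0.70 ± 0.23 and -0.78 ± 0.23 (edgeR adjusted p = 0.0367 and 0.0196). The opposite-strand gene SLC7A6OS shares 44.4% of the SLC7A6 exon bases, and without strand their reads cannot be told apart. Both calls were lost without parental replicate 3 (edgeR adjusted p = 0.195 and 0.115); that of passage 3 was also lost without leader replicate 1 or 3 of that passage (0.133 and 0.0819), and that of passage 4 when any 1 of its own replicates was left out (0.0517 to 0.0622). SLC7A8 (LAT2), a neutral amino acid exchanger of epithelia, rose in leaders of passages 1 to 3, to 1.69, 2.77 and 2.28 CPM, 2.48, 2.02 and 1.81 CPM and 2.10, 2.88 and 6.11 CPM, against 0.771, 0.357 and 0.666 CPM in parental cells. None of these 9 leader libraries overlapped the parental ones, and the log2 fold change was 1.90, 1.81 and 2.63 ± 0.58 (edgeR adjusted p = 0.012, 0.0245 and 0.00375). Without parental replicate 2 the passage 1 and 2 calls were lost (edgeR adjusted p = 0.0542 and 0.0846), and that of passage 2 also without parental replicate 3 (0.0596) or leader replicate 1 (0.0659). Laggers and passage 4 leaders, at 0.236, 0.671 and 1.68 CPM and 1.16, 0.916 and 1.22 CPM, were not called. SLC7A7 (y+LAT1) passed only at passage 3, with 83 counts in leaders and 5 in parental cells, a ratio of 26.3 with a counting interval of 10.8 to 83.2. Its edgeR adjusted p of 0.0451 went above the threshold when any 1 of 11 libraries was left out (0.053 to 0.133).

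SLC1A5, the glutamine exchanger, was lower in every nerve-recovered group. It had 101, 166 and 266 CPM in laggers, 212, 238 and 159 CPM in passage 1 leaders and 247, 245 and 232 CPM in passage 2 leaders. Passage 3 leaders had 189, 240.2 and 155 CPM and passage 4 leaders 145, 119.9 and 123 CPM, against 409, 361 and 693 CPM in parental cells. The highest nerve-recovered library, a lagger one, lay below the lowest parental library. The log2 fold change was -1.46 ± 0.31 in laggers, with -1.26 ± 0.30, -1.01 ± 0.30, -1.32 ± 0.30 and -1.91 ± 0.31 in leaders of passages 1 to 4 (edgeR adjusted p = 0.00155, 0.00311, 0.0191, 0.00513 and 0.000347). At passage 2 it did not pass without parental replicate 3 (-0.67, edgeR adjusted p = 0.128) or without leader replicate 2 (0.0514) or 3 (0.0658). An antisense gene shares 23.4% of the SLC1A5 exon bases, so its reads could be counted with either gene or with neither.

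In the other genes of the SLC1 family, which carry glutamate or small neutral amino acids, the direction differed. SLC1A1 (EAAC1), a glutamate and cysteine importer, had 11.3, 8.43 and 8.61 CPM in laggers, 23.6, 18.4 and 21.1 CPM in passage 1 leaders and 12.1, 18.2 and 16.3 CPM in passage 2 leaders. It had 15.7, 16.9 and 16.0 CPM at passage 3, 14.2, 10.9 and 11.4 CPM at passage 4 and 15.7, 13.3 and 10.7 CPM in parental cells. Only the passage 1 leaders were called against parental cells, with every library above the highest parental one and a log2 fold change of 0.67 ± 0.22 (edgeR adjusted p = 0.0202); the call was lost without parental replicate 2 (0.0517) or 3 (0.0916) or leader replicate 1 (0.0814) or 3 (0.0503). SLC1A3 (EAAT1), the glutamate transporter of glia, had 21 counts in laggers, with 23, 54, 67 and 59 counts in leaders of passages 1 to 4, against 0 counts in parental cells. It was at least 13.2-fold higher in laggers and at least 11.4, 27.6, 35.4 and 27.3-fold higher in leaders of passages 1 to 4, with the parental group set at 3 counts over its libraries. Without the library with the most counts these bounds were 4 in laggers and 3.2, 8.85, 25.3 and 17.5 in the leaders, and its level stayed under 1 CPM in every group mean. The lagger and passage 1 calls were lost when any 1 parental replicate or that library was left out (edgeR adjusted p = 0.0548 to 0.133), and the passage 2 call without leader replicate 2 (0.0503). The Schwann cell markers SOX10 and S100B averaged at most 0.13 CPM in any group. SLC1A4 (ASCT1), a serine and alanine exchanger, was called in no comparison, with group means between 6.17 CPM at passage 4 and 9.80 CPM at passage 3.

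The cationic carriers SLC7A1 and SLC7A2 moved in opposite directions. SLC7A1 had 28.2, 27.8 and 41.7 CPM in laggers, 44.2, 33.7 and 30.6 CPM in passage 1 leaders and 57.2, 61.6 and 47.0 CPM in passage 2 leaders. It had 49.9, 66.6 and 68.0 CPM at passage 3 and 65.6, 56.1 and 68.4 CPM at passage 4, against 112, 126 and 178 CPM in parental cells. All 15 nerve-recovered libraries lay below all parental ones, laggers and passage 1 leaders lowest. The log2 fold change was -2.09 ± 0.23 in laggers, with -1.94 ± 0.23, -1.33 ± 0.23, -1.17 ± 0.23 and -1.13 ± 0.23 in leaders of passages 1 to 4 (edgeR adjusted p = 7.97e-06, 1.21e-05, 0.000515, 0.00156 and 0.00179), and it passed in all 5 comparisons under every alternative run. SLC7A2 (CAT2), the inducible arginine carrier, had 4.25, 2.35 and 2.52 CPM in laggers, 3.09, 2.82 and 2.16 CPM in passage 1 leaders and 8.16, 3.84 and 5.83 CPM in passage 2 leaders. Passage 3 leaders had 1.94, 4.05 and 5.09 CPM and passage 4 leaders 2.37, 1.33 and 1.29 CPM, against 1.67, 1.10 and 1.37 CPM in parental cells. Passage 2 was highest and passage 4 overlapped the parental range. SLC7A2 rose by 1.14 ± 0.42 on the log2 scale in laggers, 2.10 ± 0.42 at passage 2 and 1.42 ± 0.42 at passage 3 (edgeR adjusted p = 0.0393, 0.00167 and 0.0204), while passage 1 and 4 leaders did not pass (0.96 and 0.27; 0.0685 and 0.674). The lagger call was lost when parental replicate 1, 2 or 3 (0.0557, 0.12 and 0.0837), lagger replicate 1 (0.172) or passage 2 leader replicate 3 (0.0509) was left out, and the passage 3 call without parental replicate 2 (0.0704) or 3 (0.0614) or leader replicate 3 (0.0984). Per kilobase of exon, SLC7A2 averaged 0.752 CPM and SLC7A1 7.18 CPM in passage 2 leaders.

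SLC3A1 (rBAT), the heavy chain of the cystine and cationic amino acid exchanger of kidney and gut, rose in the leaders. It had 0.221, 0.198 and 0.996 CPM at passage 1, 1.15, 1.64 and 3.69 CPM at passage 2, 1.99, 2.67 and 2.64 CPM at passage 3 and 0.179, 0.250 and 1.45 CPM at passage 4, against 0.0249, 0.0255 and 0.111 CPM in parental cells. All 12 leader libraries were above all parental ones, while laggers, at 0.142, 0.0479 and 0.140 CPM, were not called. By counts, 159 at passage 2 and 166 at passage 3 stood against 5 in the parental group, ratios of 48.8 (counting interval 20.5 to 152) and 52.7 (22.1 to 164), with edgeR adjusted p of 0.000871 and 0.000878. The ratios at passages 1 and 4, 10.1 and 15, were 4.49 and 4.58 without leader replicate 3 of each passage (edgeR adjusted p = 0.129 and 0.115); intervals cover counting error only. These calls were also lost without parental replicate 1 (0.0616 and 0.0527), and that of passage 1 without parental replicate 2 (0.0561). Its light chain SLC7A9 was too low to test. PREPL shares 29.4% of the exon bases of SLC3A1 on the opposite strand, and AC013717.1 shares 26.9% on the same strand. Reads over shared bases cannot be told apart and could be counted with either gene or with neither.

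**Figure D4:**
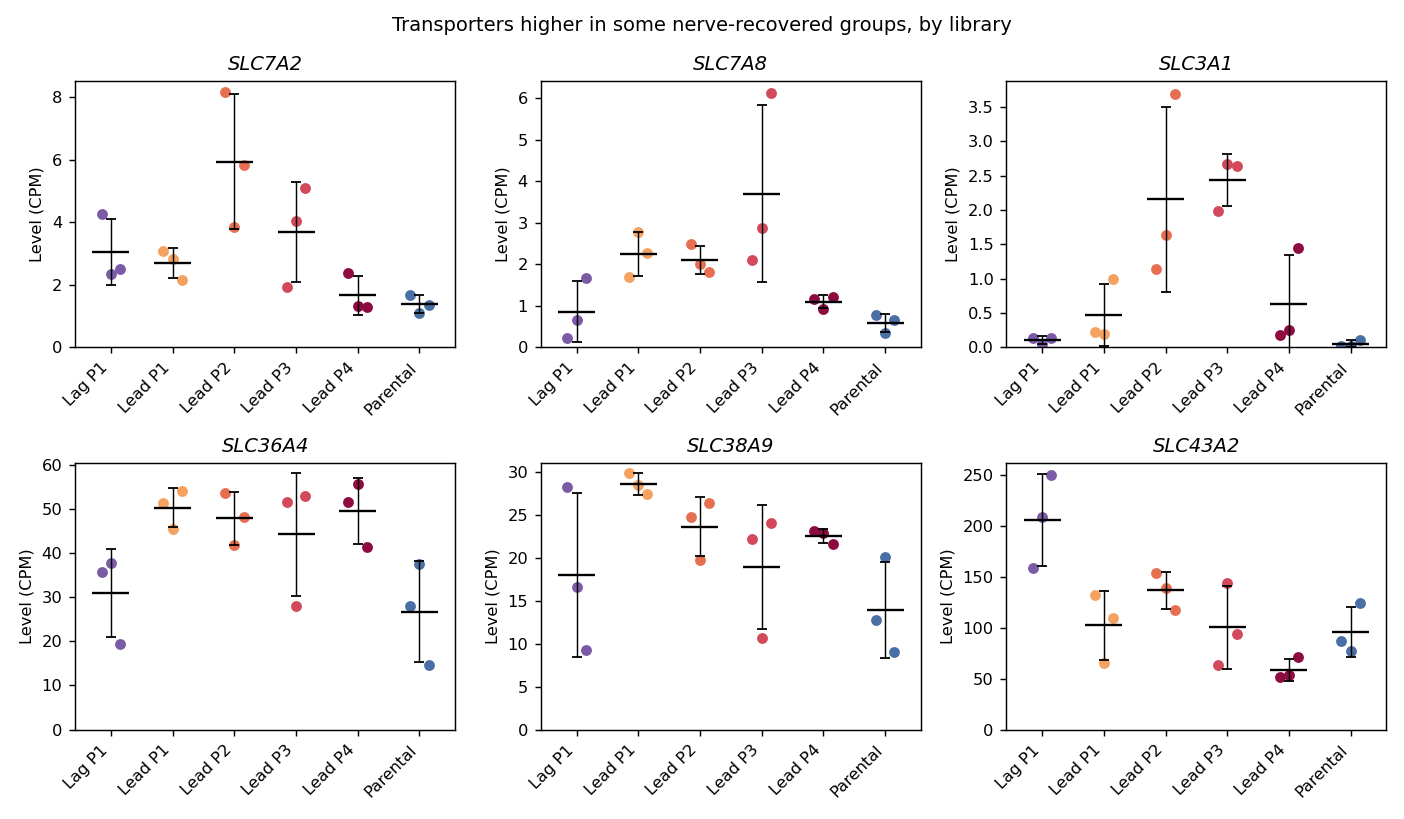
Level in CPM (y axis) of SLC7A2, SLC7A8, SLC3A1, SLC36A4, SLC38A9 and SLC43A2 in each library by group, with 1 point per library, a bar at the group mean and whiskers of 1 SD. SLC7A8 and SLC3A1 have their highest group means in passage 3 leaders and SLC43A2 in laggers.

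The facilitative transporters of the SLC43 family, which let large neutral amino acids pass without an ion, went separate ways. SLC43A1 (LAT3) had 3.31, 9.25 and 7.77 CPM in laggers, 7.10, 1.93 and 5.02 CPM in passage 1 leaders and 2.67, 6.28 and 3.58 CPM in passage 2 leaders. At passage 3 it had 5.70, 7.15 and 4.89 CPM and at passage 4 4.11, 4.37 and 8.76 CPM, against 17.4, 14.8 and 22.5 CPM in parental cells. No nerve-recovered library exceeded 9.25 CPM and no parental one was below 14.8 CPM. Its log2 fold change was -1.43 ± 0.47 in laggers, with -1.95 ± 0.48, -2.12 ± 0.49, -1.62 ± 0.48 and -1.66 ± 0.48 in leaders of passages 1 to 4 (edgeR adjusted p = 0.0252, 0.00372, 0.00405, 0.0207 and 0.0166). Without parental replicate 3 the lagger, passage 3 and passage 4 calls were lost (edgeR adjusted p = 0.0765, 0.0733 and 0.0601), as they were without lagger replicate 1 (0.0883), without passage 3 leader replicate 1 or 3 (0.0715 and 0.0765) and without passage 4 leader replicate 1 or 2 (0.0723 and 0.0736). SLC43A2 (LAT4) had 158, 209 and 249 CPM in laggers, 132, 65.5 and 109.5 CPM in passage 1 leaders and 153, 139 and 117 CPM in passage 2 leaders. It had 63.7, 144 and 93.4 CPM at passage 3 and 51.5, 53.3 and 71.0 CPM at passage 4, against 86.9, 77.2 and 124 CPM in parental cells. Laggers stood above all parental and all passage 1 leader libraries, and SLC43A2 rose in them by 1.10 ± 0.30 on the log2 scale against parental cells (edgeR adjusted p = 0.00935), under every alternative run. No leader passage was called against parental cells, the lowest value being -0.71 ± 0.30 at passage 4 (edgeR adjusted p = 0.0901).

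SLC38A2 (SNAT2), the sodium-driven importer that cells are known to induce when starved of amino acids, was called in no comparison. It had 1164, 634 and 236 CPM in laggers, 909.8, 851 and 800.3 CPM in passage 1 leaders and 866, 829 and 594 CPM in passage 4 leaders, against 926, 1490.4 and 506 CPM in parental cells. It was lowest in lagger replicate 3, passage 3 leader replicate 2 and parental replicate 3, which held the most unaligned reads of their groups, and in the other 3 groups the library with the most unaligned reads was not the lowest. The 95% interval of its log2 fold change at passage 4 was -1.33 to 0.63, and that of SLC7A5 was -3.35 to -1.49. SLC38A1 (SNAT1), which imports glutamine, showed 172, 111 and 62.3 CPM in laggers and 180.4, 255 and 146 CPM in parental cells, a log2 fold change of -0.75 ± 0.31 that did not pass (edgeR adjusted p = 0.0655). SLC38A6, SLC38A7 and SLC38A10 were not called either, with group means of 13.0 to 27.9, 46.1 to 69.5 and 233 to 366 CPM. The library with the most unaligned reads of its group had the highest SLC1A5 in 6 of the 6 groups, the highest SLC7A5 in 5 and the highest SLC38A10 in 4. GC content of the longest coding transcript was 61.1% for SLC7A5, 61.3% for SLC1A5, 57.4% for SLC3A2, 64.3% for SLC38A10 and 38.1% for SLC38A2. The part of GC content in these levels was not tested. With the unaligned share as a covariate, 54 of the 56 calls of members over the 8 comparisons held. Without the 3 libraries of widest gap in unaligned share within their groups, 44 of the 56 held. Both alternatives were added after the data were seen.

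SLC38A4 and SLC38A5 were high in a few libraries of passage 1. SLC38A4 (SNAT4), a liver carrier of neutral and cationic amino acids, had 5.15, 2.59 and 0.700 CPM in laggers, 11.5, 0.0495 and 6.19 CPM in passage 1 leaders and 0.907, 0 and 0 CPM in passage 2 leaders. It had 0, 0.160 and 0.231 CPM at passage 3 and 0.804, 1.04 and 1.12 CPM at passage 4, against 0.0995, 0.408 and 0.222 CPM in parental cells. The passage 1 leaders spread from below the parental range to far above it. Their log2 fold change of 4.57 ± 1.43 passed (edgeR adjusted p = 0.0157) and was lost without leader replicate 1 (0.0638) or without parental replicate 1 (0.0633) or 3 (0.0524). In laggers 3.51 ± 1.38 did not pass (0.0536 in edgeR). SLC38A5 (SNAT5), which carries glutamine and glycine, had 0 parental counts and was at least 58.6-fold higher in laggers and at least 30.8-fold higher in passage 1 leaders. Without the library with the most counts, lagger replicate 3 and leader replicate 1, these bounds were 13.5 and 6.41. Of the 93 lagger counts, 16 lay outside lagger replicate 3. The lagger call held under 23 of the 25 alternatives that gave a value. The passage 1 leader call (edgeR adjusted p = 0.0211) was lost without leader replicate 1 (0.101) or when any 1 parental replicate was left out (0.0516 to 0.0576).

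SLC38A9 passed the test in passage 1 leaders and SLC36A4 in leaders of passages 1 and 4. SLC38A9, the arginine sensor that reports lysosomal amino acids to mTORC1, had 28.3, 16.6 and 9.24 CPM in laggers, 30.0, 28.5 and 27.4 CPM in passage 1 leaders and 24.7, 19.8 and 26.4 CPM in passage 2 leaders. It had 22.2, 10.7 and 24.1 CPM at passage 3 and 23.1, 22.9 and 21.6 CPM at passage 4, against 12.8, 20.1 and 9.06 CPM in parental cells. Only passage 1 leaders were called, all 3 above the parental range, with a log2 fold change of 1.03 ± 0.37 (edgeR adjusted p = 0.0303); the call was lost without parental replicate 1 (0.108) or 3 (0.129) and when any 1 leader replicate was left out (0.0565 to 0.0707). SLC36A4 (PAT4), a high-affinity carrier of proline and tryptophan, had 35.7, 37.7 and 19.4 CPM in laggers, 51.3, 45.5 and 54.1 CPM in passage 1 leaders and 53.6, 41.8 and 48.2 CPM in passage 2 leaders. It had 51.5, 28.1 and 53.0 CPM at passage 3 and 51.5, 55.7 and 41.3 CPM at passage 4, against 28.0, 37.5 and 14.6 CPM in parental cells. Leaders of passages 1, 2 and 4 stood above the parental range. The log2 fold change was 0.91 ± 0.32 at passage 1 and 0.89 ± 0.32 at passage 4 (edgeR adjusted p = 0.0296 and 0.0498), and 0.84 at passage 2 did not pass (0.0589). Without parental replicate 3 both calls were lost (edgeR adjusted p = 0.131 and 0.202). The passage 1 call was also lost without parental replicate 1 (0.079) or leader replicate 1 (0.0661) or 3 (0.0787), and the passage 4 call, just under the threshold, when any 1 of 15 libraries was left out (0.0541 to 0.202).

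Between passages 1 and 4 of the leaders, 2 of the 24 transporters rose and 1 fell, 12.5% against 20.0% of all genes (10.8% higher and 9.17% lower). The median log2 fold change was -0.31 for the 24 and -0.02 for all genes. SLC7A1 rose by 0.81 ± 0.23 on the log2 scale, to a mean of 63.3 ± 6.45 CPM in passage 4 leaders against 36.2 ± 7.11 CPM in passage 1 leaders (SD, n = 3 each; edgeR adjusted p = 0.02), without overlap. SLC36A1 (PAT1), the proton-coupled exporter of small amino acids from lysosomes, had 24.4, 17.9 and 34.3 CPM in passage 4 leaders and 17.3, 7.72 and 11.3 CPM in passage 1 leaders, each of the 3 higher at passage 4. Its log2 fold change was 1.08 ± 0.31 (edgeR adjusted p = 0.0211). With 11.7, 13.0 and 16.9 CPM in laggers, 16.9, 19.7 and 17.0 CPM at passage 2, 14.8, 21.9 and 23.8 CPM at passage 3 and 15.6, 12.8 and 19.3 CPM in parental cells, SLC36A1 was called in no comparison with the parental line. SLC1A1 fell by 0.79 ± 0.22 to a mean of 12.2 ± 1.81 CPM at passage 4 against 21.0 ± 2.64 CPM at passage 1 (edgeR adjusted p = 0.0191). Each of these calls was lost without some libraries of the compared passages: SLC7A1 without passage 1 replicate 2 (0.0637) or 3 (0.0866) or passage 4 replicate 1 (0.0543) or 3 (0.0726), SLC36A1 without passage 1 replicate 2 (0.0917) or 3 (0.0739) or passage 4 replicate 3 (0.134), and SLC1A1 without passage 1 replicate 1 (0.0745) or 3 (0.0542) or passage 4 replicate 2 (0.0692) or 3 (0.0843).

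SLC3A2 and SLC7A5 came close to the threshold between these passages, at -0.72 ± 0.25 and -1.15 ± 0.42 (edgeR adjusted p = 0.051 and 0.065). Both passed with DESeq2, at -0.75 and -1.18 (DESeq2 adjusted p = 0.0238 and 0.0293). The linear trend over the 4 passages called 2 transporters upward and 3 downward, 20.8% against 21.1% of all genes (11.7% upward and 9.38% downward), with medians of -0.10 per passage for the 24 and -0.01 for all. SLC36A1 and SLC7A1 rose by 0.34 ± 0.10 and 0.26 ± 0.07 per passage (edgeR adjusted p = 0.0201 and 0.0182). SLC3A2, SLC1A1 and SLC43A2 fell by 0.24 ± 0.08, 0.23 ± 0.07 and 0.29 ± 0.10 per passage (edgeR adjusted p = 0.0374, 0.0271 and 0.0437). The SLC7A1 and SLC36A1 trends were lost without passage 1 replicate 2 or 3 or passage 4 replicate 3 (edgeR adjusted p = 0.0576 to 0.12), that of SLC1A1 without passage 1 replicate 1 or 3 or passage 4 replicate 2 or 3 (0.0661 to 0.0965), that of SLC3A2 without passage 1 replicate 2, passage 2 replicate 1 or 3, passage 3 replicate 1 or any 1 passage 4 replicate (0.0534 to 0.12), and that of SLC43A2 when any 1 of 12 libraries was left out (0.0505 to 0.164). The ranges of the summed fibroblast markers and of the mitochondrial share, given above, were also lower at passage 4 than at passage 1, and their part in these changes was not tested.

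**Figure D5:**
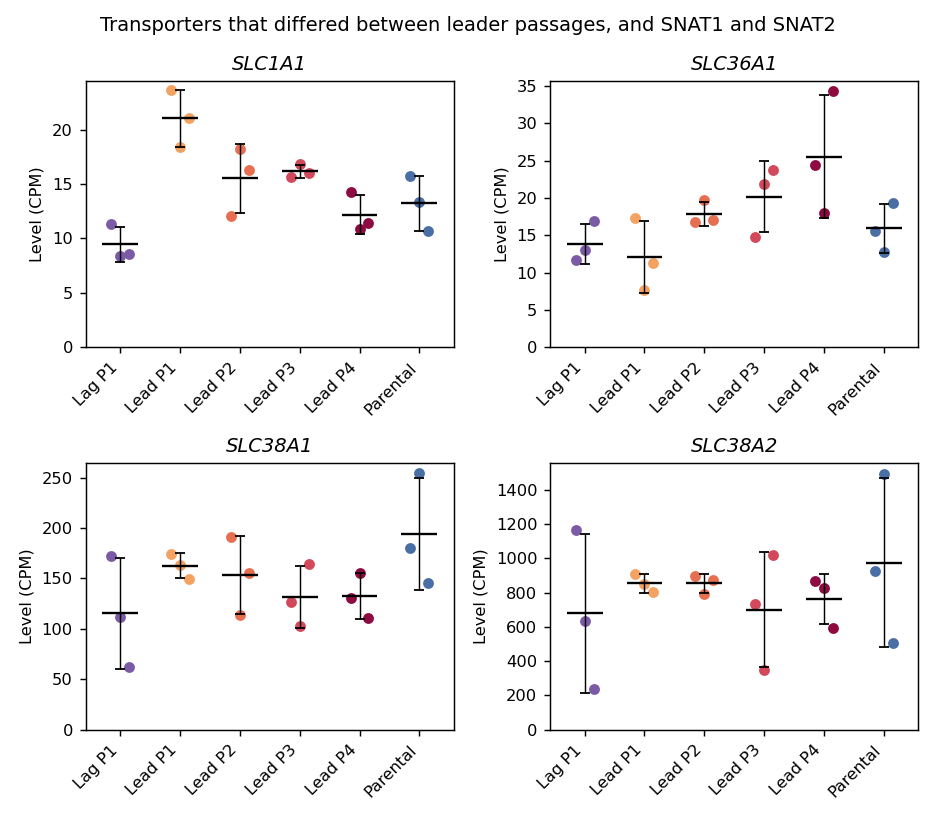
Level in CPM (y axis) of SLC1A1, SLC36A1, SLC38A1 and SLC38A2 in each library by group, with 1 point per library, a bar at the group mean and whiskers of 1 SD. SLC1A1 is highest in passage 1 leaders and SLC36A1 in passage 4 leaders, while the SLC38A1 and SLC38A2 groups overlap.

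Passage 1 leaders were set against passage 1 laggers to ask what distinguishes the cells that moved farthest from those left behind. None of the 24 transporters was called by edgeR, as against 0.0618% of all genes (10 of 16187; 0.0185% higher and 0.0432% lower). At an unadjusted p under 0.05 there were 5 transporters and 2338 genes. The DESeq2 count over all genes is not given here, and DESeq2 called 1 transporter. That was SLC1A1, with 21.0 ± 2.64 CPM in passage 1 leaders and 9.46 ± 1.63 CPM in laggers (SD, n = 3 each). All 3 leader libraries were above all lagger ones, and the log2 fold change was 1.15 ± 0.22 (edgeR adjusted p = 0.0755; DESeq2 adjusted p = 6.99e-05). SLC43A2 leaned the other way, with 102 ± 33.8 CPM in leaders and 205 ± 45.5 CPM in laggers, again without overlap, and a log2 fold change of -1.01 ± 0.30 (edgeR adjusted p = 0.189). For SLC7A5, SLC3A2 and SLC1A5 the 95% intervals of the log2 fold change were -0.38 to 1.39, -0.50 to 0.55 and -0.44 to 0.83. The median over the 24 was 0.20, against -0.06 over all genes.

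The other 15 transporters were too low to test. SLC1A6, SLC7A3, SLC7A13, SLC36A2, SLC38A8 and SLC38A11 had 0 counts in all 18 libraries, and SLC1A2, SLC1A7, SLC7A4, SLC7A9, SLC7A10, SLC7A14, SLC36A3, SLC38A3 and SLC43A3 had a few. The highest group mean among them was 0.910 CPM for SLC1A2 in passage 1 leaders, where 61 of 66 counts came from replicate 3.

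Genes that act with these transporters were read from 4 lists. Of 29 tested genes of the ATF4 amino acid response, which cells induce on shortage, 14 were lower and 4 higher in laggers, 48.3% and 13.8%, against 17.8% and 21.5% of all genes. In passage 4 leaders 15 were lower and 3 higher, 51.7% and 10.3%, against 12.9% and 14.8% of all genes. Asparagine synthetase ASNS averaged 18.1 CPM in passage 4 leaders and 110 CPM in parental cells, a log2 fold change of -2.61 ± 0.26, and the mitochondrial PEPCK gene PCK2 was at -2.46 ± 0.28 (edgeR adjusted p = 5.96e-06 and 1.58e-05). The stress genes ATF3 and DDIT4 of the same list rose, by 4.14 ± 0.31 and 2.48 ± 0.24 (edgeR adjusted p = 3.64e-07 and 4.52e-06), so the list did not move one way. In laggers ATF3 and DDIT4 rose by 5.51 and 2.92 while PCK2 and EIF2AK4, the kinase that senses uncharged tRNA, were at -2.11 and -1.19 (edgeR adjusted p = 3.2e-08, 5.31e-07, 3.51e-05 and 3.04e-05).

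Of 31 tested enzymes of amino acid synthesis and breakdown, 15 were lower and 2 higher in laggers, 48.4% and 6.45%, against 17.8% and 21.5% of all genes. In passage 4 leaders 14 were lower and 1 higher, 45.2% and 3.23%, against 12.9% and 14.8% of all genes. ASNS stands in this list too. At passage 4 the proline synthesis gene ALDH18A1 was at -0.89 ± 0.14 and argininosuccinate synthase ASS1 at -1.47 ± 0.25 (edgeR adjusted p = 0.000259 and 0.000566). SHMT2, the mitochondrial serine hydroxymethyltransferase, averaged 116 CPM in passage 4 leaders and 232 CPM in parental cells (edgeR adjusted p = 0.00068). Among 33 tested genes that sense amino acids for mTORC1, 6 were higher and 5 lower in laggers, 18.2% and 15.2%, and 4 higher and 4 lower in passage 4 leaders, 12.1% each way, near the shares of all genes. Within them the Rag GTPase RRAGD rose by 1.65 ± 0.27 and the Ragulator gene LAMTOR5 by 0.96 ± 0.24 at passage 4, while WDR59 of GATOR2 was at -0.93 ± 0.22 (edgeR adjusted p = 0.000362, 0.00846 and 0.00618). Of 15 tested amino acid transporters outside the 6 families, SLC7A11 counted, 5 were lower and 1 higher in laggers, 33.3% and 6.67%, against 17.8% and 21.5% of all genes. In passage 4 leaders 4 were lower and 2 higher, 26.7% and 13.3%, against 12.9% and 14.8% of all genes. At passage 4 the mitochondrial ornithine carrier SLC25A15 was at -0.97 ± 0.17 and the taurine carrier SLC6A6 at -1.63 ± 0.34 (edgeR adjusted p = 0.000543 and 0.00257). The mitochondrial glutamate carrier SLC25A22 averaged 51.2 CPM in passage 4 leaders and 119 CPM in parental cells (edgeR adjusted p = 0.00113).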

How the data were processed

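RNA sequencing libraries of MiaPaCa-2 cells were analysed, 18 in 6 groups of 3 set by the labels. The authors deposited raw counts per gene; cutadapt 1.6, STAR 2.5.0a, HTSeq 0.5.3 and DESeq 1.22.1 are named, without their roles, in the submitters' processing notes. No genome build is named in those sources. Libraries were made with SMART-Seq v4, which does not mark strand, per the labels' protocols. Gene totals were 15113462 to 39373248 counts. The 5 entries that name no gene took 27.6% to 60.6% of all entries and were left out.

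Here the counts were tested with edgeR 4.0.16 in R 4.3.3: 1 quasi-likelihood model of the 18 libraries, a mean for each group and F tests (12 residual degrees of freedom), TMM scaling and the edgeR filter on expression, which left 16187 genes and set aside 41258. P-values were adjusted by Benjamini-Hochberg over all genes in each of 8 comparisons, with a threshold of 0.05. CPM use TMM-scaled library sizes. Alternatives were RLE scaling, no filter, DESeq2 1.42.0, limma-voom (limma 3.58.1), the compared groups alone, a replicate block, each library left out, and, added after the data were seen, the 3 libraries with the widest gap in unaligned share above the next of their group (lagger and parental replicate 3, passage 3 leader replicate 2) left out together and the unaligned share as a covariate. Libraries of a group differed by more than counting error, with a chi-square of 19.6 to 219 per degree of freedom. The script was tested on simulated data.

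Values were given in full for transporters called in at least 1 comparison with 5 CPM or more in the higher group, and for SLC3A2, SLC7A5 and SLC1A5; from each list of other genes up to 4 with the smallest adjusted p were named. SLC1A3, SLC3A1, SLC7A7, SLC7A8, SLC38A1, SLC38A2 and SLC38A5 and the transporter ratios fall outside that rule and were chosen after their values were seen. The transporters and all lists were chosen with earlier results of these data known. Chromosomes, exon lengths, GC content and overlaps came from GENCODE 29, where 51812 of 57445 identifiers and all 39 transporters were found, and upstream sequences from RefSeq on GRCh38.p14. The floor for a group at 0 was 3 counts over the group, and intervals are 95%.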

Additional observations from a re-analysis of the deposited data

Results flagged for a closer look

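Passage 4 and passage 1 leaders differed by a test of the difference itself in 3 transporters, by edgeR's quasi-likelihood test with Benjamini-Hochberg adjustment. The log2 fold change of passage 4 over passage 1 was 1.08 for SLC36A1 (edgeR adjusted p = 0.0211), 0.81 for SLC7A1 (0.02) and -0.79 for SLC1A1 (0.0191), each higher or lower in 3 of 3 libraries. Against the parental line, SLC7A1 was lower at both passages, by -1.13 ± 0.23 at passage 4 and -1.94 ± 0.23 at passage 1. SLC1A1 was at -0.12 at passage 4 and 0.67 at passage 1, and SLC36A1 at 0.68 and -0.39. Each of the 3 calls was lost without at least 3 of the libraries of the compared passages. Groups of 3 libraries were not searched for single outlying values.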

How the results depend on the processing

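No call changed direction under any alternative that gave a value. Of 56 calls of transporters, 21 passed under every alternative that gave one, 26 for most calls and 25 for the 9 of SLC1A3, SLC3A1 and SLC38A5 that fell below the filter with the compared groups alone. The calls that held were 55 with RLE scaling, 48 with no filter, 55 with DESeq2, 50 with limma-voom, 54 with the unaligned share as a covariate and 44 without the 3 libraries of widest gap in unaligned share within their groups, both chosen after seeing the data, and 36 of 47 with the compared groups alone; 22 held when each library was left out in turn. The number of transporters called between passage 1 leaders and laggers, 0, was 1 with no filter and with DESeq2 (leaving out single libraries, 0 to 1). For passage 1 leaders against parental cells, 13 became 7 with the compared groups alone (5 to 14), and for passage 3 leaders 10 became 6 with the compared groups alone and 6 without the 3 libraries (5 to 11). Between passages 4 and 1, 3 became 5 with no filter, 7 with DESeq2, 8 without the 3 libraries and 7 with the covariate (0 to 5; 0 without passage 1 replicate 3 or passage 4 replicate 3, and 5 without passage 3 replicate 2). For the trend, 5 became 8 with DESeq2, 8 with the compared groups alone, 8 without the 3 libraries and 9 with the covariate (1 to 7; 1 without passage 1 replicate 3 or passage 4 replicate 3, 2 without passage 1 replicate 2 or passage 4 replicate 2, and 3 without passage 2 replicate 1 or 3, passage 3 replicate 1 or passage 4 replicate 1). The other counts ran over 7 to 10 for laggers, 5 to 8 for passage 2 and 6 to 9 for passage 4 leaders against parental cells. The compared groups alone leave fewer libraries to estimate the spread, and the cause of the other moves was not tested. Counts of all genes under these alternatives are not given here, so the moves are not read as particular to the transporters.

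Replicate numbers did not pair the libraries: same-numbered libraries of different groups had correlations of their deviations between -0.41 and 0.40, over 0.1 in 8 of 45 pairs, and 5 of 18 libraries were closest to their own number. With a replicate block 53 of the 56 calls held; SLC36A4 at passage 4 (edgeR adjusted p = 0.0515), SLC7A7 at passage 3 (0.0587) and the SLC43A2 trend (0.0524) were lost, and SLC3A2 between passages 4 and 1 passed (-0.72, 0.048). Depth limits the transporters under 1 CPM, whose calls rest on a few counts.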
